A study of Trachemys scripta with 24 samples.

Results

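The mir-200 family is a group of small RNAs best known from epithelia, where its members repress the messenger RNAs of ZEB1 and ZEB2, a pair of transcription factors that silence E-cadherin, and so help to keep cells in an epithelial state. In vertebrates the hairpins of mir-200b, mir-200a and mir-429 lie close together and are usually made from one transcript, and mir-200c and mir-141 form a separate cluster. Each hairpin can give a mature miRNA from its 5p and from its 3p arm, and in most vertebrates the 3p arm is the abundant product of this family. In plasma, such miRNAs are carried outside cells, and their level can depend both on how many cells release them and on how much each cell releases, which cannot be told apart in bulk plasma.

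The family was taken from the count table as every entry with the prefix cpi (Chrysemys picta, the painted turtle, the closest relative of the sampled species among the 4 reference species) and a name of exactly mir-200, mir-141 or mir-429 with any letter, with both arms and with each entry used once. This gave 6 entries out of 528 cpi entries and 1994 entries in all, which were the labelled 5p and 3p arms of 3 hairpins, cpi-mir-200b, cpi-mir-200a and cpi-mir-429. The rule found 0 cpi entries of mir-141, and its 4 mir-200 entries were the arms of mir-200a and mir-200b, with no entry of mir-200c. The entries were taken by name and not by a limit on their values, although earlier results of these data were known when they were chosen.

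The libraries came from the plasma of 8 female pond sliders (Trachemys scripta), sexually mature and clinically healthy animals with no genotype or strain given, whose ovaries were removed electively under injectable general anesthesia after a fast. Blood was drawn 24 h before surgery (T0), again 2.5 h after the operation (T1) and last at 36 h (T2), and 8 libraries were sequenced per time point. All turtles were operated on and no sham-operated group was analysed here, so surgery, anesthesia, handling and elapsed time cannot be told apart. The labels give a library name (t31 to t54) and a time point but not the turtle. All 24 libraries were therefore treated as separate samples, although the same 8 turtles were sampled at each time point. The intervals and tests between time points leave this repeated sampling out.

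Library totals, with each entry counted once, ranged from 22648 to 2042924 counts, and the median totals of T0, T1 and T2 were 512310, 496379 and 418194.5. The shallowest library was t39 of T2, in which 1 count was worth 33.6 CPM (counts per 1000000 counts) and 3 counts 100.7 CPM. In the deepest library, t36 of T2, 1 count was worth 0.542 CPM. CPM here is the count over the library's total over all 1994 entries, adjusted by the trimmed mean of M values (TMM). The table held entries of several reference species, and 3.95 counts stood on all entries for each count on a cpi entry. CPM over the cpi entries alone would therefore be about that many times larger.

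Before the levels were read, the arm names were checked against hairpins whose main arm is well known in vertebrates. The table marks some entries as taken from miRBase, and all 6 entries of the family lacked that mark. Among 70 cpi hairpins outside the family without it on either arm, 67 had more counts on the arm opposite to the usual main arm, and 3 had more on the usual one. Of the 4 hairpins with both arms from miRBase, 4 had the usual arm as the more abundant one, and all 4 were of the let-7 family. The 4 hairpins with 1 arm from miRBase were also let-7, and 2 had more on the usual arm, 1 on the other and 1 equal counts. The let-7 hairpins without the mark on either arm (let-7a-1, let-7a-3, let-7c-1, let-7f-1 and let-7f-2) had more on the arm opposite to the usual one. Marked hairpins of other families were not among those listed. The 3 hairpins of the mir-200 family had more counts on the entry labelled 5p, whereas 3p is their usual main arm. The names 5p and 3p are therefore used below as labels of the table, and which arm of the hairpin an entry measures was not settled.

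**Figure D1:**
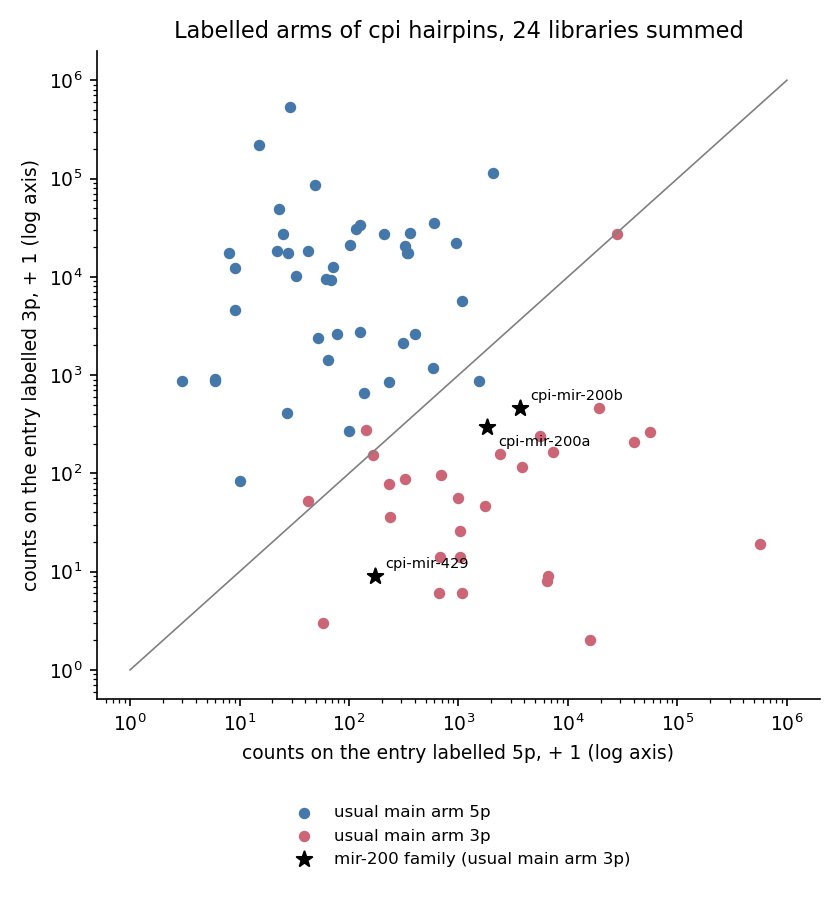
Counts summed over 24 libraries on the entry labelled 3p (vertical, log axis) against the entry labelled 5p (horizontal, log axis) of each listed cpi hairpin without the miRBase mark on either arm, with 1 added to each sum. Blue points are hairpins whose usual main arm is 5p, red points those whose usual main arm is 3p, black stars the mir-200 family, and the line marks equal counts. Of the 70 coloured points, 67 lie on the side opposite to their usual arm, and the 3 stars lie on the 5p side.

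The 6 entries were unequal. Over the 24 libraries they collected 6384 counts, 0.180% of all counts on cpi entries. Of these, 3619 (56.7%) fell on mir-200b-5p and 1835 (28.7%) on mir-200a-5p. The entries mir-200b-3p and mir-200a-3p took 457 (7.16%) and 294 counts (4.61%). The remaining hairpin of the cluster was scarce, with 171 counts on mir-429-5p (2.68%) and 8 on mir-429-3p (0.125%). The 3 entries labelled 5p together held 88.1% of the family's counts. All 4 mir-200 entries were detected in 21 of 24 libraries, and all 6 entries in 5.

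By mean CPM the order was mir-200b-5p, mir-200a-5p, mir-200b-3p, mir-200a-3p, mir-429-5p and mir-429-3p, and mean CPM is compared here between mature miRNAs of similar length. The level of mir-200b-5p was above that of mir-200a-5p in 22 of 24 libraries, below it in t46 of T0 and equal in t49 of T0. The ratio of mir-200b-5p to mir-200a-5p had a median of 1.83 over the 23 libraries in which both were detected, and ran from 0.752 in t46 to 6.29 in t47. The level of mir-200a-5p exceeded that of mir-200b-3p in 22 libraries. Further down the order the neighbours overlapped more. The entry mir-200b-3p was above mir-200a-3p in 17 libraries and below it in 5, and mir-200a-3p was above mir-429-5p in 16 and below it in 5. These orders are descriptions, since entries of one hairpin can share reads.

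The leading entry, cpi-mir-200b-5p, was detected in all 24 libraries. At T0 its level was 276 CPM in t31, 128 in t34, 372 in t37, 281 in t40, 394 in t43, 102.8 in t46, 40.1 in t49 and 233 in t52. At T1 it was 425 CPM in t32, 282 in t35, 504 in t38, 313 in t41, 90.6 in t44, 185 in t47, 193.7 in t50 and 114 in t53. At T2 it was 676 CPM in t33, 299 in t36, 302 in t39, 147 in t42, 229 in t45, 191 in t48, 244 in t51 and 114 in t54. The 3 time points overlapped over most of their ranges, the lowest library (t49) belonged to T0 and the highest (t33) to T2. The value of t39 rested on 9 counts. Mean levels were 228 ± 128 CPM before surgery, 263 ± 146.3 at T1 and 275 ± 175 at T2 (SD, n = 8 each), whereas the medians were 254, 238 and 236 CPM. Means and medians thus ran in opposite order, and without t33 the T2 mean was 218 CPM.

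With a mean of 256 ± 145.7 CPM over 24 libraries, mir-200b-5p ranked 65th among the 528 cpi entries. The entries just above it were cpi-mir-375-5p (294 ± 181.4 CPM), a family known from endocrine and epithelial cells, and cpi-mir-16c-3p (290 ± 188 CPM), of a family expressed in most tissues. Just below it were cpi-mir-142-2-3p (253 ± 113 CPM), of a family of blood cells, and cpi-mir-24-1-5p (249 ± 102 CPM). These 4 neighbours differed from mir-200b-5p by less than the spread between libraries, which follows from their being picked as nearest in mean CPM.

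The level of cpi-mir-200a-5p ranged from 40.1 CPM (t49) to 196 (t40) at T0 with a median of 127, from 29.5 (t47) to 392 (t38) at T1 (median 94.6), and from 0 (t39) to 290 (t33) at T2 with a median of 124. Means were 128 ± 52.9, 135 ± 121 and 126.2 ± 88.8 CPM (SD, n = 8 each). The 3 time points overlapped. The SD was larger at T1 and T2 than at T0, a difference that was not tested and that involved single libraries. At T1 the SD included t38, with the next highest library at 210 CPM. At T2 it included t33, with the next highest at 170 CPM, and the 0 of t39. The 0 in t39 allows up to 100.7 CPM, the worth of 3 counts in that library, so it does not separate t39 from the lower libraries of the group. Such floors cover counting error only.

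The 2 mir-200 entries labelled 3p were less abundant. The level of cpi-mir-200b-3p had medians of 31.3, 35.8 and 22.2 CPM at T0, T1 and T2, with ranges of 10.7 to 59.1, 11.6 to 96.2 and 0 to 47.2 CPM. Its means were 33.9 ± 20.2, 41.5 ± 26.9 and 23.8 ± 16.9 CPM (SD, n = 8 each). For cpi-mir-200a-3p the medians were 20.3, 22.2 and 8.63 CPM, and the ranges 0 to 45.4, 6.53 to 61.7 and 0 to 29.3 CPM. Its means were 18.7 ± 14.2, 24.5 ± 18.8 and 12.4 ± 12.7 CPM (SD, n = 8 each). Both entries had their lowest mean and median at T2, and in both the groups overlapped.

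The mir-429 hairpin was near the limit of detection. Its labelled 5p entry was detected in 5, 7 and 5 of 8 libraries at T0, T1 and T2, with means of 9.51 ± 10.1, 9.36 ± 7.37 and 11.1 ± 11.6 CPM (SD, n = 8 each) and a highest value of 32.2 CPM in t33. The labelled 3p entry had 5 counts over the T0 libraries, 2 over the T1 libraries and 1 over the T2 libraries, too few for a fold change to be read.

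**Figure D2:**
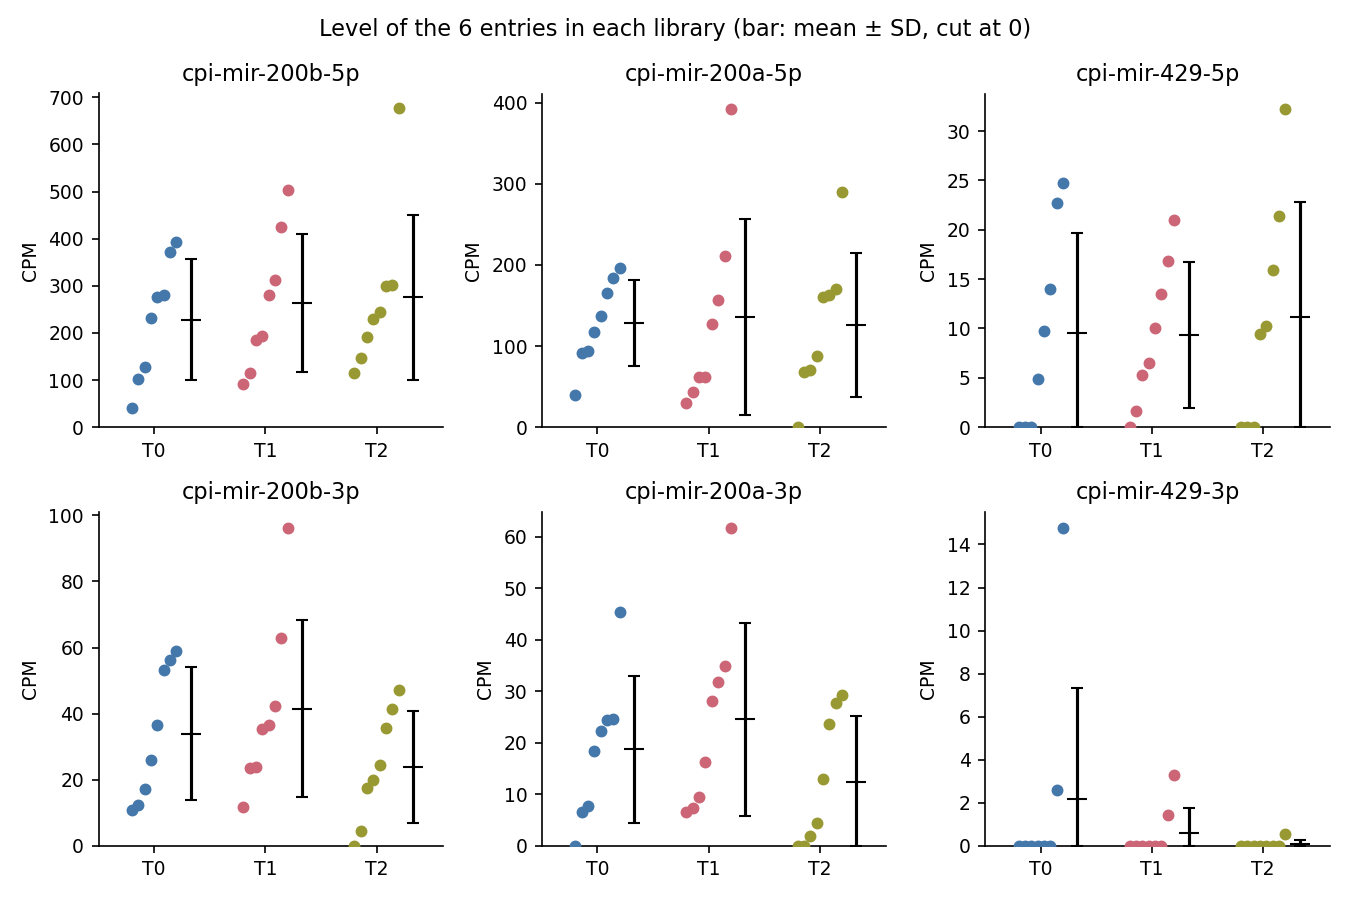
Level of each of the 6 family entries in CPM, 1 point per library and 8 libraries per time point, sorted by value, with the mean and SD of each time point (bars, not drawn below 0). The time points overlap in every entry, and the highest point of mir-200b-5p is t33 of T2 at 676 CPM.

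Within a hairpin the share of counts on the labelled 5p entry was high in nearly every library. For mir-200b it had a median of 88.9%, ran from 68.4% (t34) to 100% and was above the 3p share in 24 of 24 libraries. For mir-200a the median was 88.2% over the 23 libraries with counts, and the 5p entry led in 22. The exception was t47 of T1, in which 21 of 65 mir-200a counts, 32.3% (95% Wilson interval 22.2% to 44.4%), were on the labelled 5p entry. In the same library 132 of 158 mir-200b counts, 83.5% (77.0% to 88.5%), were on its labelled 5p entry, so the reversal was seen for mir-200a and not for mir-200b. The mir-200a-3p count of t47 also depended on the reference species. It differed from the 44 under cpi by 11 under the alligator (ami) and by 8 under the king cobra (oha) entry. The intervals cover counting error only.

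To ask whether the family changed in plasma after surgery, each pair of time points was compared with edgeR's quasi-likelihood test, with Benjamini-Hochberg adjustment over the 690 entries kept by the low-count filter. Calls needed an adjusted p no larger than 0.1 and a log2 fold change of 1 or more in either direction. The 4 mir-200 entries passed the filter and the 2 mir-429 entries did not. None of the 4 was called in any comparison by edgeR, and at an unadjusted p of at most 0.05 with the same fold limit the count was also 0 of 4. DESeq2, the other count tool, called 0 of the 6 entries, and at T1 against T0 it gave no adjusted p to mir-200a-3p and the mir-429 entries, which had low counts.

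At T1 against T0, 4 of 690 entries tested were called (0.58%), and 29 (4.2%) passed the unadjusted limits. This background depended on the settings, since DESeq2 called 16 entries, and edgeR called 0 with no TMM, with no filter and in 12 of the 24 fits that left out 1 library. For mir-200b-5p the log2 fold change was 0.19 (SE 0.43, adjusted p = 0.940 by edgeR), with a 95% interval from −0.68 to 1.07. On the fold scale this interval ran from 0.623 to 2.09, so these libraries leave room for a rise up to the fold limit used for calls. For mir-200a-5p the log2 fold change was 0.06 (SE 0.50, adjusted p = 0.983 by edgeR), and it was −0.13 with no TMM scaling. The entries mir-200b-3p and mir-200a-3p had 0.27 (SE 0.48, adjusted p = 0.939 by edgeR) and 0.37 (SE 0.64, adjusted p = 0.936 by edgeR). The median of the 4 entries was 0.23, beside 0.09 over all entries tested.

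At T2 against T0, 0 of 690 entries were called by edgeR (0%), 35 (5.07%) passed the unadjusted limits, and DESeq2 called 1 entry. The log2 fold change of mir-200b-5p was 0.26 (SE 0.43, adjusted p = 0.916 by edgeR) with a 95% interval from −0.62 to 1.14, or 0.652 to 2.20 on the fold scale. Without t33 of T2 it was −0.07, with the opposite sign. The log2 fold change was 0.05 (SE 0.49) for mir-200a-5p, −0.37 (SE 0.49) for mir-200b-3p and −0.39 (SE 0.66) for mir-200a-3p. The median of the 4 was −0.16, beside −0.03 over all entries tested. This comparison and that of T1 share the T0 libraries, so their values are not independent of each other.

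At T2 against T1, 0 of 690 entries were called by edgeR (0%), 25 (3.62%) passed the unadjusted limits, and DESeq2 called 0. The log2 fold change was 0.07 (SE 0.43) for mir-200b-5p and −0.01 (SE 0.50) for mir-200a-5p. Among the 4 entries kept by the filter, those labelled 3p differed most, with log2 fold changes of −0.64 (SE 0.49, adjusted p = 0.883 by edgeR, 95% interval −1.65 to 0.37) for mir-200b-3p and −0.76 (SE 0.65, adjusted p = 0.883 by edgeR, 95% interval −2.10 to 0.58) for mir-200a-3p. Both intervals include no change, and without t32 of T1 the value of mir-200b-3p was −0.21. The median of the 4 was −0.32, beside −0.11 over all entries tested. In the fit with no filter, mir-429-5p had log2 fold changes of −0.39 (SE 0.79) at T1 against T0, 0.12 (SE 0.79) at T2 against T0 and 0.51 (SE 0.80) at T2 against T1.

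**Figure D3:**
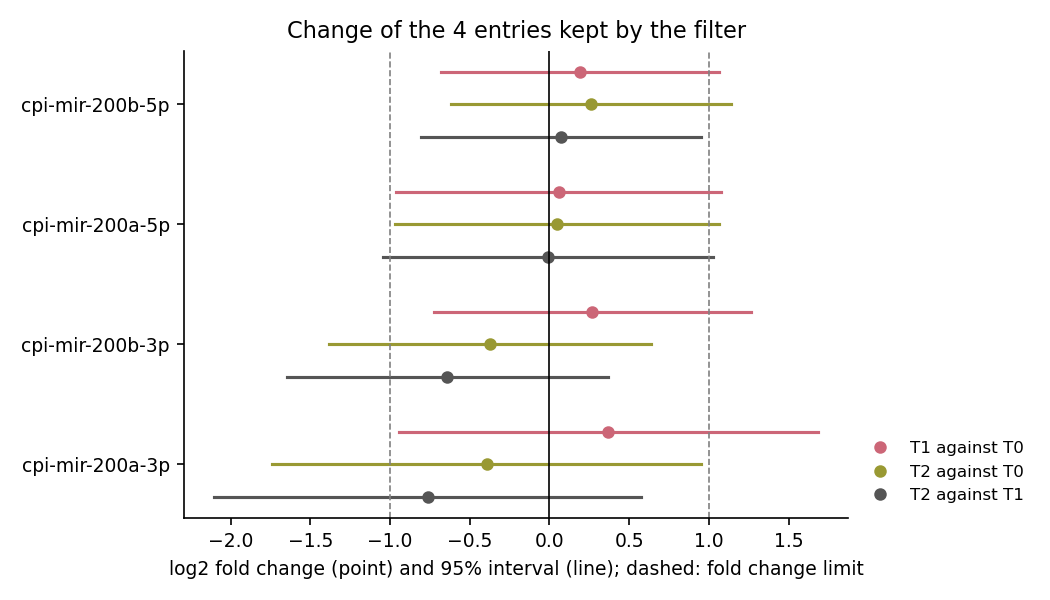
Log2 fold change by edgeR of the 4 mir-200 entries kept by the filter (points), with 95% intervals (lines), for the 3 comparisons of time points. Dashed lines mark the fold limit used for calls, all 12 intervals cross 0, and those of mir-200a-3p are the widest.

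Summed over the 6 entries, the family stood at 421 ± 180 CPM before surgery, 475 ± 289 at T1 and 449 ± 270 at T2 (SD, n = 8 each). The medians of this sum were 473, 393 and 388 CPM. Its mean share of the cpi counts was 0.174 ± 0.072%, 0.174 ± 0.109% and 0.175 ± 0.090% (SD, n = 8 each). The median shares were 0.193%, 0.156% and 0.160%, and single libraries ran from 0.033% (t49) to 0.420% (t38). These sums are given as a description.

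The entries of the other reference species were counted from largely the same reads and are not independent measurements. The alligator (ami) entries of mir-200b-5p, mir-200b-3p and mir-200a-5p equalled the cpi entries in 24 of 24 libraries, and the anole (aca) entry of mir-200b-5p in 22 of 24. The entry mir-200a-3p depended more on the reference, with 341 counts under aca, 284 under ami and 323 under oha (Ophiophagus hannah, the king cobra), beside 294 under cpi. The scarce mir-429-3p depended on it most in proportion, with 21 counts under aca, 18 under ami and 12 under oha beside 8 under cpi. The log2 fold change of mir-200a-3p at T2 against T1 was −0.96 (SE 0.56) under aca and −0.50 (SE 0.67) under ami, and neither was called.

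Since mir-200b, mir-200a and mir-429 are clustered, the levels of pairs of entries were compared across the 8 libraries of each time point, on the log2(CPM + 1) scale. A pair was tested where both entries were detected in at least 6 of the 8 libraries, which gave 22 pairs and time points. Spearman's rho was above 0 in 21 and below 0 in 1, with a median of 0.44 and a range from −0.05 to 0.88. The 22 reuse the same entries and libraries and are not separate observations. Pairs of entries outside the family were not measured within a time point. After Benjamini-Hochberg adjustment over the 22, 0 reached an adjusted p of 0.05 by exact permutation, and the smallest adjusted values were 0.159 for rho and 0.157 for Pearson's r. At an unadjusted exact permutation p of at most 0.05 there were 2 for rho and 6 for r.

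The 2 most abundant entries, mir-200b-5p and mir-200a-5p, come from different hairpins of the cluster. At T1 their rho was 0.88 (exact permutation p = 0.00724, adjusted p = 0.159) and r was 0.77 (exact permutation p = 0.0296, adjusted p = 0.163), and r was 0.77 again without t38 and t47, the libraries farthest from the median of mir-200a-5p. At T0 rho was 0.38 (exact permutation p = 0.360, adjusted p = 0.609) and r was 0.72 (exact permutation p = 0.0451, adjusted p = 0.165), and without t40 and t49 r was 0.11, so this r rested on those libraries. At T2 rho was 0.40 (exact permutation p = 0.327, adjusted p = 0.599) and r was 0.07 (exact permutation p = 0.807, adjusted p = 0.810), and without t33 and t39 r was 0.76. The library t39 had 0 counts of mir-200a-5p beside 9 of mir-200b-5p. Over the 24 libraries pooled, which hold 3 per turtle and are not independent, rho was 0.61, and 0.72 without t39, whereas r with t39 included was 0.29.

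The arms of mir-200b gave a similar picture. At T1 their r was 0.85 (exact permutation p = 0.00712, adjusted p = 0.157) and rho was 0.81 (exact permutation p = 0.0218, adjusted p = 0.240), and r was 0.87 without t32 and t53. At T0 and T2 rho was 0.29 and 0.31. For the arms of mir-200a rho was 0.55, 0.05 and 0.49 at T0, T1 and T2. At T1 their r was 0.10, and 0.89 without t41 and t47, the latter being the library with the reversed arm share. In t41 mir-200a-3p had 2 counts under cpi, and the count under aca differed from that by 10. The entry mir-429-5p could be tested at T1, where its rho with mir-200b-5p was 0.64 (exact permutation p = 0.0962, adjusted p = 0.416) and r was 0.72 (exact permutation p = 0.0401, adjusted p = 0.165), with r at 0.30 without t38 and t44. All these pairs share the library's total and TMM factor. The arms of one hairpin can also share reads, and how far this entered their correlations was not tested.

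**Figure D4:**
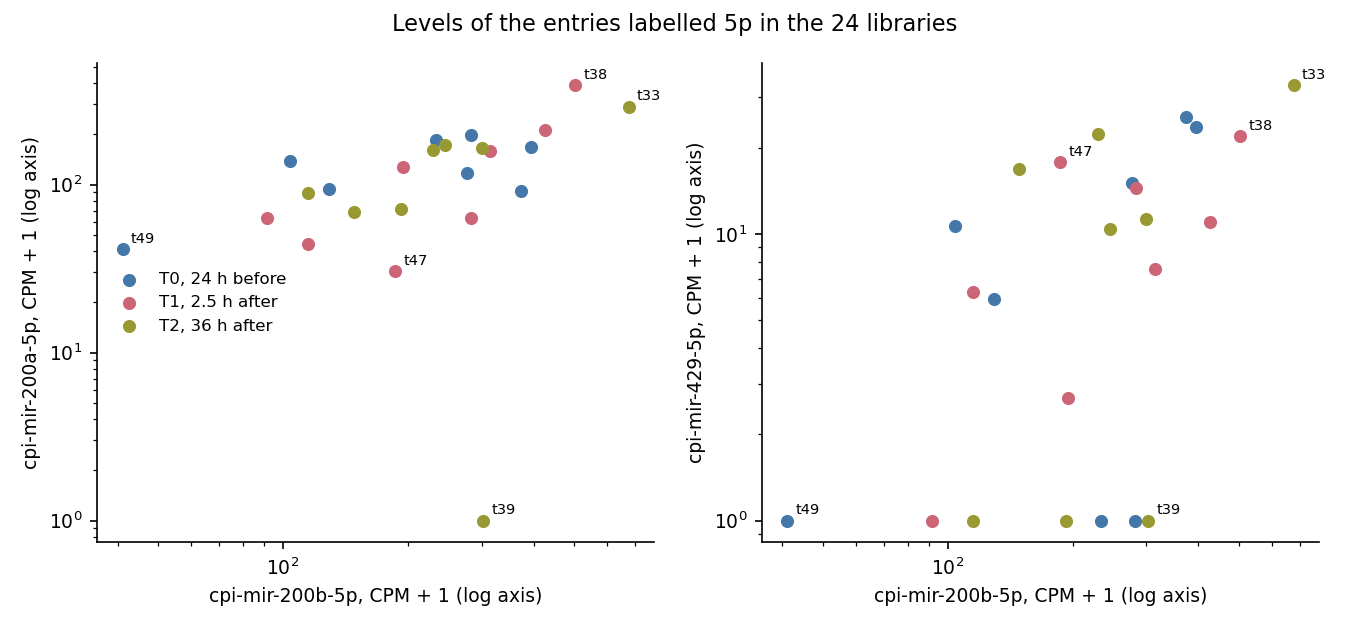
Level of mir-200a-5p (left) and of mir-429-5p (right) against that of mir-200b-5p, all as CPM + 1 on log axes, 1 point per library and 1 colour per time point. Libraries with more of one entry mostly had more of the other, with rho over 24 libraries at 0.61 (left) and 0.53 (right). In the left panel t39, with 0 counts of mir-200a-5p, lies apart at the bottom. In the right panel 7 libraries had 0 counts of mir-429-5p, and the highest count was 25. These 7 were shallow, with at most 320694 counts in all (t48), so the right rho rests partly on zeros set by depth.

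Across the 197 other cpi entries that passed the filter, the rank correlation with mir-200b-5p over 24 libraries had a median of 0.05 and ran from −0.52 to 0.68. Of the family, mir-200a-5p stood 2nd at 0.61 and mir-200b-3p 3rd at 0.54, and mir-200a-3p 31st at 0.24. By Pearson's r on the log2(CPM + 1) scale the order was another, with mir-200a-3p 11th at 0.36, mir-200b-3p 21st at 0.32 and mir-200a-5p 26th at 0.29. Outside the family the 5 entries most like it were mir-147-5p (0.68), mir-30e-3p (0.43), mir-10c-3p (0.42), mir-194-1-3p (0.40) and mir-145-5p (0.39). By Pearson's r these 5 ranked 1st, 22nd, 32nd, 16th and 10th in the same order. The mir-194 family is known from intestinal and liver epithelium and mir-145 from smooth muscle. The entry mir-194-2-3p had a rho of 0.35. For mir-145-3p, with more counts than mir-145-5p (5653 against 1074), rho was −0.14, so 1 entry need not stand for its family. The rank correlation of mir-200b-5p with the library's total count was 0.15. These values are descriptions over libraries that share turtles.

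**Figure D5:**
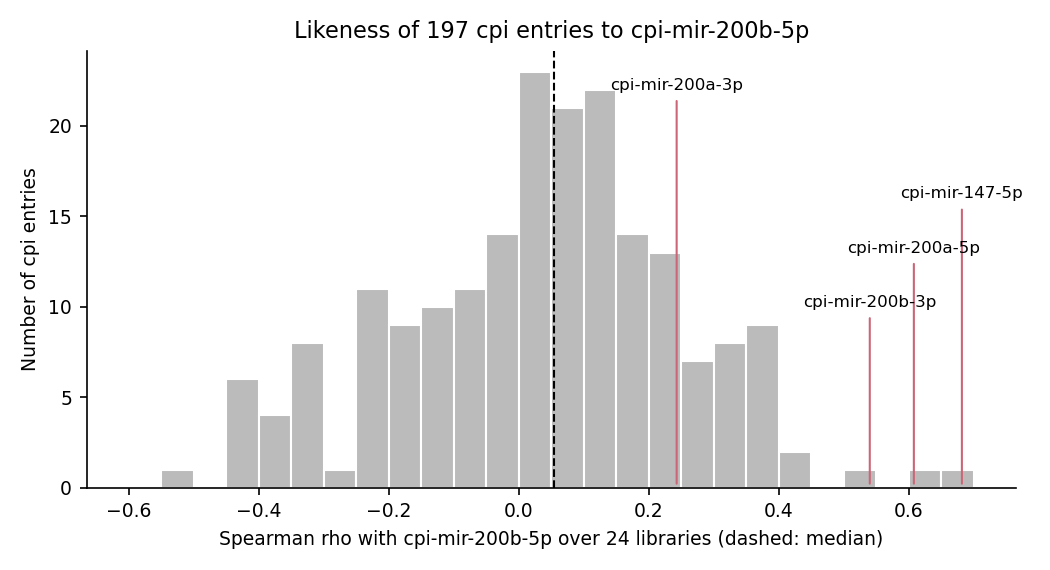
Distribution over 197 cpi entries of the Spearman rank correlation of their level with that of mir-200b-5p across 24 libraries, with mir-147-5p and the family's other tested entries marked and a dashed line at the median. The entries mir-200a-5p (0.61) and mir-200b-3p (0.54) lie in the upper tail, whereas mir-200a-3p (0.24) lies nearer to the median of 0.05, an order that Pearson's r does not keep.

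Other miRNAs of epithelia were taken as a list of the families mir-203, mir-205, mir-31, mir-375, mir-182, mir-183, mir-96, mir-184, mir-192, mir-194 and mir-215. Of its 26 cpi entries, 9 passed the filter and 0 of 9 were called in each of the 3 comparisons. At the unadjusted limits the counts were 1 at T1 against T0, 0 at T2 against T0 and 1 at T2 against T1. Over all 690 entries tested the shares past these limits were 4.2%, 5.07% and 3.62%. The list entry past the limits was mir-203-5p in both cases, of a family known from skin epithelium. Its log2 fold change was 1.67 (SE 0.54, adjusted p = 0.353 by edgeR) at T1 against T0 and −1.14 (SE 0.54, adjusted p = 0.846 by edgeR) at T2 against T1. The list's median log2 fold changes were 0.19, −0.35 and −0.54 in the order T1 against T0, T2 against T0 and T2 against T1. Those of the 4 mir-200 entries were 0.23, −0.16 and −0.32, and those over all 690 entries tested 0.09, −0.03 and −0.11. At T1 against T0, 5 of the 9 were higher and 4 lower, beside 397 higher and 293 lower of all 690. Among the lower of the 9 were mir-205a-3p (−0.54) and mir-375-5p (−0.66). At T2 against T0, 8 of the 9 were lower, beside 355 of all 690, whereas the mir-200 entries split into 2 higher and 2 lower. No entry of mir-31, mir-182, mir-183 or mir-96 was among the 9. The 9 are not separate observations, since mir-194-1-3p and mir-194-2-3p had nearly equal counts (12407 and 12652).

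Entries typical of other tissues were measured beside the family, and all entries of the 5 lists were detected. Over 24 libraries the rank correlation of mir-200b-5p with the summed level was 0.09 for red cell entries (mir-451 and mir-144). It was −0.01 for white cell entries, all 6 of which were of mir-223 and mir-142. The white cell list also named mir-150, which had no cpi entry. The rank correlation was −0.20 for skeletal muscle (mir-1, mir-133 and mir-206), 0.17 for liver (mir-122) and −0.29 for skin and stratified epithelium (mir-203 and mir-205). Within the skin list the signs differed. The more abundant mir-205a-3p (mean 175 CPM) had a rank correlation of −0.44 with mir-200b-5p, and mir-203-5p (mean 29.3 CPM) one of 0.23. Signs also differed within the white cell list, from −0.33 for mir-142-2-3p to 0.11 for mir-142-1-5p. The summed levels of the red cell list ran from 1817 to 13714 CPM before surgery, from 1226 to 26506 at T1 and from 2363 to 15910 at T2, and those of the skin list from 154 to 385, from 149 to 349 and from 123 to 243 CPM. The part of these cell types in the family's levels was not tested.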

How the data were processed

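Plasma small RNA of 8 turtles at 3 time points was sequenced (24 libraries). The authors clipped adapters with Cutadapt, discarded short reads, aligned the rest with BWA to the miRBase precursors of 4 saurian species, and deposited whole-number counts per entry and library without normalization. The extraction kit named in the labels differs from the one the study's methods select, and which was used for sequencing was not settled. Of 3988 rows, each of the 1994 entries stood in 2 identical rows, and 1 was used. No genome coordinates or sequences were used.

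edgeR (version 4.0.16, R 4.3.3) normalized by TMM, filtered with filterByExpr (690 entries kept, 198 of them cpi) and compared time points by quasi-likelihood tests within a single model of all 24 libraries. The SE is the size of the log2 fold change divided by the square root of F. Entries removed by the filter took values from a fit with no filter. The common dispersion was 0.453. DESeq2 (version 1.42.0) was an alternative. Correlations used log2(CPM + 1), with two-sided exact permutation tests over 40320 pairings. The scripts were tested on simulated data. Alternatives changed the normalization, filter, rows, reference species and libraries in the fit. Named entries were all cpi entries of the family, the same names under other prefixes, the 2 cpi entries above and below the leading one, the 5 outside the family most like it, and listed families. Members and lists were chosen with earlier results of these data known. Totals ranged from 22648 to 2042924 counts. Labels name no turtle, so p-values measure the spread between libraries.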

Additional observations from a re-analysis of the deposited data

Results flagged for a closer look

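In groups of 8 libraries, 23 sets of values of the family were examined for a highest or lowest library that stood apart, taken as a gap to its nearest neighbour, relative to the group's whole range, above Dixon's 95% critical value. There were 5 such groups, and 3 of them were of mir-429-3p, in which 6 or 7 of 8 libraries were at 0, so that 1 to 3 counts set the gap. For normally distributed values chance gives about 1 group in 20. CPM values and shares need not be so distributed, so that rate is only a rough guide here. Of the 20 groups without mir-429-3p, 2 stood apart. For mir-200b-5p at T2 the library t33 (676 CPM) stood above the next one (302 CPM in t39) by 0.666 of the range. The share of mir-200a counts on the labelled 5p entry at T1 was lowest in t47 (32.3%), with a gap of 0.738 of the range. The other 3 concerned mir-429-3p, which had at most 3 counts in any library, with gaps of 0.824 at T0 (t34, 3 counts), 0.57 at T1 (t41, 1 count) and 1 at T2 (t36, 1 count).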

How the results depend on the processing

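No paired analysis was possible because the labels name no turtle and the library numbers do not repeat between time points. Under 33 alternative fits, 9 of them other than leaving out a library, 0 of the family's entries tested were called in any comparison. The entries fitted were 3 in the fits with 2 time points and in 12 of the 24 fits without a library, where mir-200a-3p was filtered out, and 4 to 6 in the others. At T1 against T0, DESeq2 gave no adjusted p to mir-200a-3p and the mir-429 entries, so these could not be called there. Across all fits the smallest adjusted p of a family entry was 0.513. Over all entries, 4 of 690 were called at T1 against T0, 16 of 680 with DESeq2 and 1 of 198 with the cpi entries alone. None were called with no TMM, no filter, summed over species or with 2 time points in the fit. With all rows as deposited 8 of 1380 rows were called, and there each entry stands in 2 identical rows. Leaving out a library gave 0 to 6, and 0 without t31, t32, t33, t34, t36, t37, t38, t41, t43, t46, t47 or t53. At T2 against T0 the count of 0 became 1 with DESeq2, no TMM, the cpi entries alone, summed over species, 2 time points in the fit, or without t32 of T1 (0 to 1 over left-out libraries).

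The sign of mir-200a-5p, close to no change, turned with several settings. Its log2 fold change at T1 against T0 was −0.056 with DESeq2 size factors, −0.13 with no TMM, −0.055 with no filter and −0.045 with 2 time points. At T2 against T0 it was −0.064 with no TMM. At T2 against T1 it was 0.053 with DESeq2, 0.082 with DESeq2 size factors, 0.064 with no TMM, 0.079 with no filter, 0.052 summed over species and 0.0067 with 2 time points. The cause was not tested. With a library left out, the log2 fold change ranged, for T1 against T0, T2 against T0 and T2 against T1, from −0.36 to 0.17, −0.20 to 0.19 and −0.14 to 0.42 for mir-200a-5p, and from −0.0048 to 0.34, −0.067 to 0.50 and −0.18 to 0.33 for mir-200b-5p. For mir-200b-3p it ranged from −0.052 to 0.43 at T1 against T0 and from −0.77 to −0.21, the latter without t32, at T2 against T1.

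Spearman's rank correlation changed sign or came to 0 with a library left out for mir-200a-3p with mir-200b-5p (−0.11 to 0.43 at T0, −0.14 to 0.43 at T2), mir-200a-5p with mir-200b-3p (−0.18 to 0.32 at T0), the arms of mir-200b (0 to 0.50 at T0, −0.036 to 0.71 at T2), the arms of mir-200a (−0.18 to 0.57 at T1) and mir-200a-5p with mir-429-5p (−0.11 to 0.64 at T1). For mir-200a-5p with mir-200b-5p, rho ranged from 0.071 (without t49) to 0.68 (without t37) at T0 and from 0.82 to 0.93 at T1. At T2 it ranged from 0.11 (without t33) to 0.86 (without t39). Over the cpi entries alone the CPM of the entries were about 4 times larger. Depth limited t39 most, where 3 counts are 100.7 CPM.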
